A study of Mus musculus with 12 samples.

Results

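A set of 9 transcription factors and co-regulators that mark or specify cortical projection neurons, Tbr1, Bcl11b, Fezf2, Sox5, Foxp2, Tle4, Zfpm2, Neurod2 and Neurod6, were followed in the dorsal telencephalon of mouse embryos. They were picked by symbol, and all 9 were found among the 54735 gene symbols listed in each of the 12 libraries. All 9 also had a mean of at least 1 TPM (a transcript abundance scaled by gene length and library) over the 12 libraries, as did 11764 symbols in all. Embryos were C57/Bl6 mice at stage E13.5, and the tissue was the pallium, the forebrain wall that forms the cortex. All 12 carried Emx1-Cre, a recombinase driven by a gene of pallial progenitors, which acts in that lineage, so other cells of the tissue are expected to keep their floxed alleles. Control embryos (n = 4) were Rnu11wt/flx with Trp53wt/wt, and so carried 1 floxed copy of Rnu11 together with the recombinase. Rnu11 cKO embryos (n = 4), below cKO, were Rnu11flx/flx with Trp53wt/wt. Double mutant embryos (n = 4), below dKO, were Rnu11flx/flx with Trp53flx/flx. Rnu11 encodes the U11 small nuclear RNA of the minor spliceosome, and Trp53 encodes p53. Each library is 1 separately numbered embryo, and no label gives the litter or the sex.

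The cortex builds its projection neurons from the deep layers outward. Newborn neurons switch on basic helix-loop-helix factors of the Neurod family, which bind E-box motifs and drive neuronal differentiation. Deep-layer identity is then set by factors that restrain each other. Fezf2 and Bcl11b (CTIP2) mark subcerebral neurons of layer 5, whereas Tbr1, Sox5, Tle4, Foxp2 and Zfpm2 (FOG2) mark corticothalamic neurons of layer 6 and the subplate. At this stage the tissue holds progenitors and the first deep-layer neurons.

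The bases before the transcription start are printed for the 2 Neurod genes, whose levels were lower in dKO, and for Tle4, the gene of the set called higher there. Each window holds the 250 bases before the start, on the gene's own strand, from RefSeq on build GRCm38.p6. Capitals mark the E-box CANNTG, which reads the same on both strands, so matches on either strand are covered and none is counted more than once.

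Neurod2 (chr11:98329646-98329895, minus strand): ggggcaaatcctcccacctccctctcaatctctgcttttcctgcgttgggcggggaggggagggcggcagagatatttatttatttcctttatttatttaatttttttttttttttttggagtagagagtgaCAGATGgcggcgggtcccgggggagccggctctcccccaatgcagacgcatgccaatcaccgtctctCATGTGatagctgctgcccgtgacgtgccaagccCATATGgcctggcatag
Neurod6 (chr6:55681264-55681513, minus strand): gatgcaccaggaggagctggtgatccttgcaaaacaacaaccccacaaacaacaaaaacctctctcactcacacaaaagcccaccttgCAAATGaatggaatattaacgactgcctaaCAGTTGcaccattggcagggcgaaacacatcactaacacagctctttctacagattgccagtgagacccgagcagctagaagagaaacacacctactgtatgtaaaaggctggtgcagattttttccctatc
Tle4, the first of its 2 listed starts (chr19:14598184-14598433, minus strand): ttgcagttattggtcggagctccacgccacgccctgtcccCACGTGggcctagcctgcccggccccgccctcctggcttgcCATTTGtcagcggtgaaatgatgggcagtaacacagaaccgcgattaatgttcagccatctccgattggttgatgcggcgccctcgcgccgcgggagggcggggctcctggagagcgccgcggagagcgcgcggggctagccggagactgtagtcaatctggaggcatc

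The Neurod2 window held 3 E-boxes, with CAGATG starting 118 bases before the transcription start, CATGTG at 51 bases and CATATG at 17 bases. The CAGATG form, searched on both strands, was in 14.4% of the 32851 windows of the same length in the table. Neurod6 had 2 E-boxes, CAAATG at 162 bases and CAGTTG at 132 bases. The first Tle4 start also had 2, CACGTG at 210 bases and CATTTG at 169 bases. At least 1 E-box was in 66.2% of all windows, at least 2 in 31.8% and at least 3 in 12.2%, so the presence of an E-box does not set these genes apart. Of the other starts of the set found in the table, Tbr1 had 1 E-box (CAGGTG, 46 bases before the start), and the windows of Bcl11b, Fezf2, Sox5 and the other Tle4 start had none. The Sox5 window (chr6:143947107-143947356, minus strand) lies well inside the annotated gene, whose upstream end is at 144781977, so it covers an internal start only. The windows of Tbr1 (chr2:61804203-61804452), Fezf2 (chr14:12345866-12346115) and the other Tle4 start (chr19:14597214-14597463) also lie inside their annotated genes. They too cover internal starts. A window was found for 7 of the 9 genes, and Foxp2 and Zfpm2 are named only. These matches describe letters, not binding.

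On the same build the GENCODE M21 annotation places Tbr1 at chr2:61802930-61814114 on the plus strand, Bcl11b at chr12:107910403-108003602 on the minus strand and Fezf2 at chr14:12342094-12348189 on the minus strand. Tle4 lies at chr19:14448150-14598051, Neurod2 at chr11:98325415-98329648 and Neurod6 at chr6:55677822-55681263, all on the minus strand. The other 3 are long genes. Sox5 spans 953553 bases (chr6:143828425-144781977, minus strand), Foxp2 540629 bases (chr6:14901349-15441977, plus strand) and Zfpm2 449558 bases (chr15:40655035-41104592, plus strand). Antisense genes were annotated inside Sox5 alone among the 9, and the highest level of any of them in any embryo was 0.917 TPM, in Sox5os1. Genes on the same strand were annotated inside Sox5, Foxp2 and Zfpm2. Inside Zfpm2, itself at 0.572 to 2.12 TPM, Gm49526 reached 0.794 TPM. Whether the quantification used strand is not given in the sources used here.

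As a check of the labels, Rnu11 ranged from 521 to 724 TPM over the control embryos, from 115 to 159 over cKO and from 142 to 199 over dKO. Trp53 ranged from 2.63 to 6.37 TPM over control, from 3.92 to 4.83 over cKO and from 0.920 to 1.49 over dKO. Read numbers cannot be recovered from TPM, so the depth of the libraries is unknown, and intervals or limits that need counts are left out. Nuclear protein-coding genes took 14.6 to 16.3% of the TPM in control, 16.1 to 20.0% in cKO and 14.4 to 15.5% in dKO. The median of all 11764 tested genes lay 0.25 higher in cKO than in control on the log2(TPM + 1) scale, -0.01 from control in dKO, and -0.26 in dKO against cKO. Each change is therefore given on the deposited values and again after median-shift centring, which subtracts from every library its median log2 distance to the average library. Changes were tested with limma across all 11764 genes, a gene was called at a Benjamini-Hochberg adjusted p under 0.05, and a log2 change of a gene near 1 TPM is smaller than its ratio because of the added 1. The 3 comparisons share embryos pairwise.

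In control pallium the 9 genes spanned a 68.9-fold range of mean level. Neurod6, a marker of postmitotic pyramidal neurons, was the highest at 94.4 ± 16.4 TPM (SD, n = 4), above 96.3% of the tested genes. Sox5, which times the migration and the axon choices of deep-layer neurons, stood at 19.5 ± 1.72 TPM. Fezf2, the selector of subcerebral fate, was next at 17.1 ± 1.74 TPM, and the embryos of these 2 genes overlapped. Neurod2 followed at 13.505 ± 1.37 TPM, apart from its neighbours in the order on both sides. Bcl11b, a zinc finger factor that acts downstream of Fezf2, stood at 6.45 ± 1.21 TPM. Tle4, a Groucho-type co-repressor with no DNA-binding domain of its own, stood at 4.79 ± 0.557 TPM. The T-box factor Tbr1 stood at 2.86 ± 1.01 TPM and the forkhead factor Foxp2 at 2.19 ± 0.132 TPM. From Bcl11b down to Foxp2 each neighbouring pair overlapped between embryos. Zfpm2, a co-factor of GATA and nuclear receptor proteins, was the lowest at 1.37 ± 0.197 TPM and lay apart from Foxp2.

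**Figure D1:**
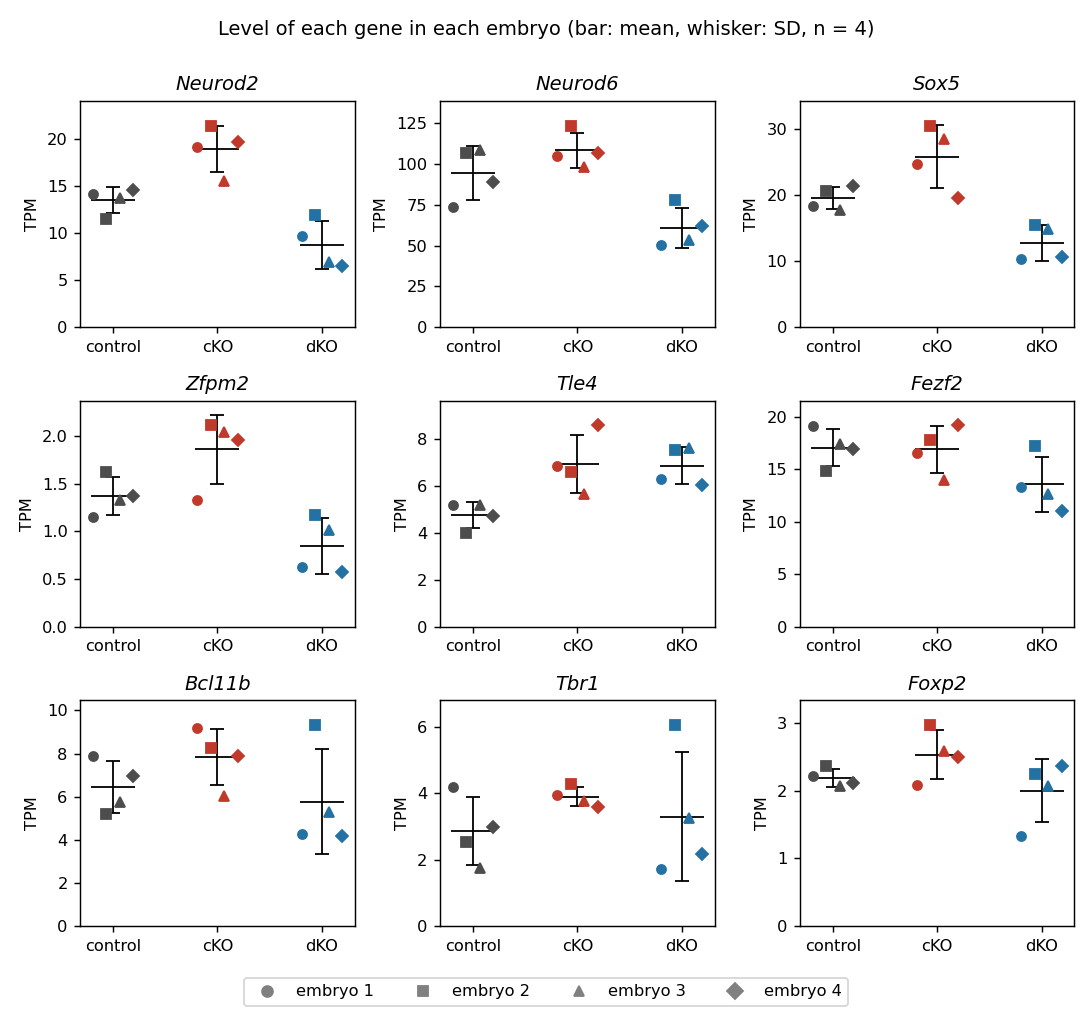
Level of each of the 9 genes in TPM (vertical axis, from 0) in every control, cKO and dKO embryo, with the group mean as a bar and the SD as a whisker (n = 4 each). Neurod2, Neurod6, Sox5 and Zfpm2 are lower in all 4 dKO embryos than in any cKO embryo, Tle4 is higher in both mutants than in control, and dKO embryo 2 stands high for Tbr1 and Bcl11b.

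The Neurod genes were lower in the double mutant. Neurod2, which drives the maturation of cortical neurons, was at 14.2, 11.5, 13.8 and 14.6 TPM in control embryos 1 to 4, at 19.1, 21.4, 15.6 and 19.7 TPM in cKO, and at 9.65, 11.9, 6.91 and 6.49 TPM in dKO. Every cKO embryo was above every control and every dKO embryo, while dKO embryo 2 lay just above control embryo 2. The dKO mean, 8.73 ± 2.52 TPM (SD, n = 4), was 46.0% of the cKO mean and 64.6% of the control mean. Between cKO and dKO Neurod2 fell by 1.06 in log2(TPM + 1) (limma SE 0.162, adjusted p = 0.000889) and by 0.79 after centring (adjusted p = 0.0108). This call was kept with each of the 12 embryos left out in turn on both scales. Against control the dKO change was -0.61 as deposited (limma adjusted p = 0.0510) and -0.59 centred (adjusted p = 0.0316), so it passed on the centred scale only. Without dKO embryo 2 the deposited change was -0.75 (limma adjusted p = 0.0138). In cKO against control Neurod2 rose by 0.46 as deposited (limma adjusted p = 0.0455), and centring left 0.21 (adjusted p = 0.466).

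Neurod6 was at 73.6, 107, 108 and 89.0 TPM in control, at 105, 124, 98.1 and 107 TPM in cKO, and at 50.3, 78.0, 53.6 and 61.9 TPM in dKO. The dKO embryos were below all cKO embryos, and dKO embryo 2 lay above the lowest control embryo. The dKO mean of 61.0 ± 12.4 TPM (SD, n = 4) came to 64.6% of the control mean and 56.3% of the cKO mean. Neurod6 fell by 0.63 in dKO against control as deposited (limma adjusted p = 0.0374) and by 0.61 centred (adjusted p = 0.0373). In dKO against cKO it fell by 0.83 as deposited (limma adjusted p = 0.00237), and the centred change of -0.57 missed the threshold (adjusted p = 0.0576). With dKO embryo 2 left out the centred change was -0.67 (limma adjusted p = 0.0323), and it also passed with control embryo 1 left out. Neurod6 in cKO differed from control by 0.21 as deposited (95% interval -0.13 to 0.55) and by -0.04 centred (-0.39 to 0.31), neither of which passed.

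Sox5 had the same order of group means, with cKO highest and dKO lowest. Its levels were 18.4, 20.6, 17.8 and 21.3 TPM in control, 24.7, 30.5, 28.4 and 19.5 TPM in cKO, and 10.3, 15.4, 14.8 and 10.6 TPM in dKO. All dKO embryos were below all others, and cKO embryo 4 was the only cKO embryo within the control range. The dKO mean came to 65.5% of the control mean and 49.6% of the cKO mean. In dKO against cKO Sox5 fell by 0.96 as deposited (limma adjusted p = 0.00118) and by 0.69 centred (adjusted p = 0.0356). Against control it fell by 0.59 as deposited (limma adjusted p = 0.0489), and the centred value of -0.57 did not pass (adjusted p = 0.0600) unless cKO embryo 4 was left out (adjusted p = 0.0216). The cKO change of 0.37 did not pass (limma adjusted p = 0.0791), and 0.12 was left after centring (adjusted p = 0.746). Without cKO embryo 4 the deposited change was 0.49 (limma adjusted p = 0.0359).

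Zfpm2 had the lowest levels and a like order of groups. It was at 1.15, 1.63, 1.33 and 1.38 TPM in control, at 1.33, 2.12, 2.04 and 1.96 TPM in cKO, and at 0.625, 1.17, 1.01 and 0.572 TPM in dKO. The dKO embryos were below all cKO embryos and, apart from dKO embryo 2, below all control embryos. Zfpm2 fell by 0.64 in dKO against cKO as deposited (limma adjusted p = 0.00384). The centred change was -0.37 (limma adjusted p = 0.111), and dKO against control was -0.37 as deposited (adjusted p = 0.129) and -0.35 centred (adjusted p = 0.112). In cKO against control it differed by 0.27 (limma adjusted p = 0.124) and by 0.02 centred; without cKO embryo 1 the deposited difference was 0.36 (adjusted p = 0.0439). Its dKO mean was 61.7% of control, near the ratios of the Neurod genes, and the added 1 shrinks its log2 change at this level.

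Tle4 moved the other way. Its levels were 5.21, 4.02, 5.19 and 4.74 TPM in control, 6.87, 6.61, 5.67 and 8.61 TPM in cKO, and 6.32, 7.53, 7.61 and 6.06 TPM in dKO. Every mutant embryo of either genotype was above every control embryo, and the cKO and dKO ranges overlapped. The means were 145% of control in cKO and 144% in dKO. Tle4 rose by 0.45 in cKO (limma adjusted p = 0.0144) and by 0.44 in dKO (adjusted p = 0.0498) on the deposited values. After centring the cKO change was 0.20 (limma adjusted p = 0.201), and the dKO rise was 0.46 (adjusted p = 0.00707). The centred dKO call was kept with each of the 12 embryos left out in turn. Between the mutants Tle4 differed by -0.00 as deposited (95% interval -0.26 to 0.25) and by 0.27 centred (0.08 to 0.45, limma adjusted p = 0.0898). Tle4 was the only one of the 9 called higher in dKO than in control on either scale.

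Fezf2, Bcl11b, Tbr1 and Foxp2 passed no test on the deposited or the centred values. Fezf2 was at 19.1, 14.9, 17.4 and 17.0 TPM in control, at 16.6, 17.7, 14.0 and 19.2 TPM in cKO, and at 13.3, 17.2, 12.6 and 11.1 TPM in dKO. dKO embryos 1, 3 and 4 were below every control embryo, and dKO embryo 2 lay among the controls. The dKO mean was 79.4% of control, a change of -0.32 as deposited (95% interval -0.61 to -0.04, limma adjusted p = 0.189) and -0.30 centred (adjusted p = 0.0940). Without dKO embryo 2 Fezf2 fell by 0.40 centred against control (limma adjusted p = 0.0190). On the deposited values Fezf2 was also the only one of the 9 without a higher mean in cKO than in control, with a change of -0.02 (-0.30 to 0.27). Centred, all 4 cKO embryos were below all 4 controls, by 0.27 (limma adjusted p = 0.157).

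Bcl11b was at 7.89, 5.21, 5.74 and 6.95 TPM in control, at 9.17, 8.24, 6.04 and 7.89 TPM in cKO, and at 4.25, 9.34, 5.31 and 4.20 TPM in dKO. The dKO group held both the highest and the lowest embryo of all 12. Tbr1 was at 4.18, 2.54, 1.76 and 2.97 TPM in control, at 3.95, 4.27, 3.76 and 3.59 TPM in cKO, and at 1.71, 6.06, 3.24 and 2.18 TPM in dKO. Its dKO embryos likewise spanned the range of all 12, from embryo 1 to embryo 2, while the cKO embryos lay close together. The centred difference in dKO against control was -0.16 for Bcl11b (95% interval -0.58 to 0.25). For Tbr1 it was 0.11 (-0.43 to 0.65). Foxp2 was at 2.22, 2.36, 2.06 and 2.12 TPM in control, at 2.08, 2.97, 2.58 and 2.50 TPM in cKO, and at 1.33, 2.24, 2.06 and 2.37 TPM in dKO. Its groups overlapped throughout, and the centred dKO difference from control was -0.08 (-0.33 to 0.17).

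**Figure D2:**
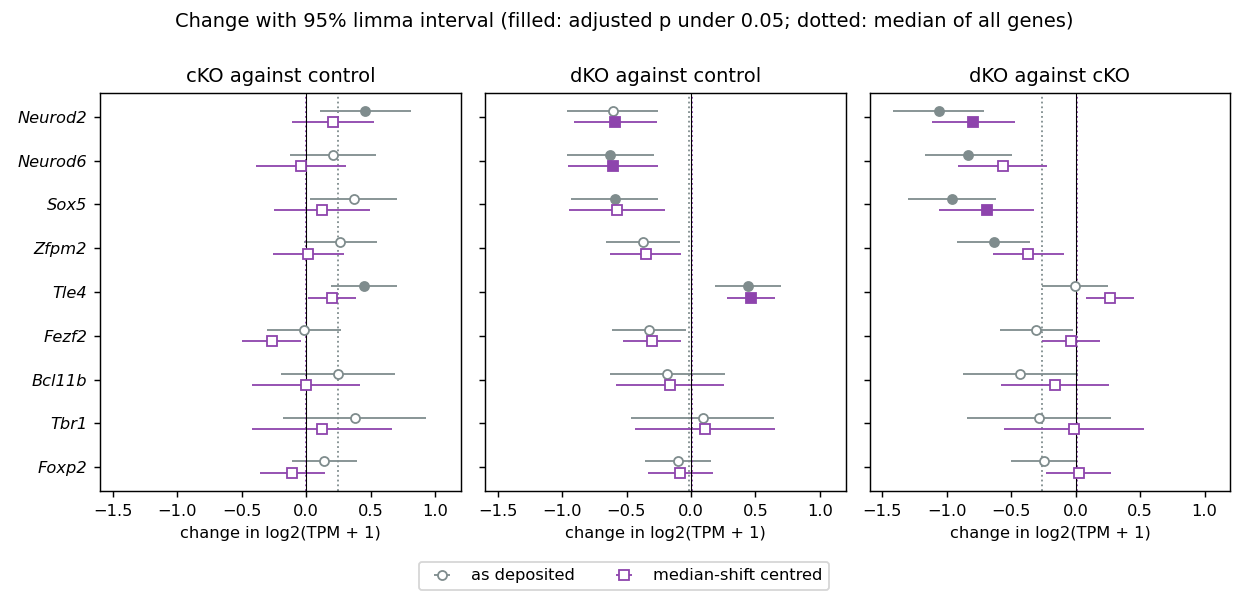
Change of each gene in log2(TPM + 1) (horizontal axis) with its 95% limma interval in the 3 comparisons, on deposited values (grey circles) and after median-shift centring (purple squares); filled symbols passed an adjusted p under 0.05 and dotted lines are the median of all genes. Neurod2 in dKO against cKO is filled on both scales, as are Neurod6 and Tle4 in dKO against control, and the 2 filled symbols in cKO against control are open after centring.

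The double mutant against control gave 1 member called higher (Tle4) and 2 called lower (Neurod6, Sox5) as deposited, where 1.79% of all tested genes were called higher and 3.40% lower. After centring it gave 1 higher (Tle4) and 2 lower (Neurod2, Neurod6), against 3.74% and 4.69% of all genes. The median change of the 9 was -0.32 as deposited and -0.30 centred, beside -0.01 and 0.01 for all tested genes. On the deposited values the embryos of 1 member, Tle4, were all above control, as for 5.14% of genes, and those of 1 member, Sox5, were all below, as for 8.44%. Several of these calls sit near the threshold. As deposited, the Sox5 and Tle4 calls were each lost in 10 of the 12 fits with an embryo left out and the Neurod6 call in 6, with limma adjusted p up to 0.130, 0.127 and 0.112. After centring the Neurod6 call was lost in 8 (adjusted p up to 0.0998) and the Neurod2 call in 6 (up to 0.0847). The direction of these changes was the same in all 12 fits.

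Between the mutants 4 members were called lower in dKO as deposited (Neurod2, Neurod6, Sox5, Zfpm2) and 0 higher, where 38.8% of all genes were called lower and 0.612% higher. A share of 4 of 9 is near that background. The same 4 had all dKO embryos below all cKO embryos, as did 32.8% of all genes. With the common shift removed 2 were called lower (Neurod2, Sox5) and 0 higher, against 3.83% and 2.10% of all genes, and the median of the 9 was -0.16, beside 0.01 for all genes. The 4 deposited calls were kept in all 12 fits with an embryo left out, and the centred Sox5 call was lost in 6 (limma adjusted p up to 0.113). dKO embryo 2 bears on these counts. Without it 7 of the 9 were called lower as deposited, with Bcl11b (-0.65, limma adjusted p = 0.00770), Fezf2 (-0.42, adjusted p = 0.0199) and Tbr1 (-0.56, adjusted p = 0.0423) added, and 3 were called lower after centring. The share of all genes called without that embryo is not given here, so these counts have no background beside them.

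In cKO against control 2 members were called higher as deposited (Neurod2, Tle4) and 0 lower, where 34.3% of all genes were called higher and 1.09% lower. The members' share is no higher than that of all genes. The 4 cKO embryos were above the 4 controls for the same 2 members and for 32.7% of all genes. The members' median change of 0.27 was close to the 0.25 of all genes. After centring 0 of the 9 were called in either direction (3.72% of all genes higher, 2.96% lower), and limma's unadjusted p was under 0.05 for 2 of them, Fezf2 (lower) and Tle4 (higher). Counts at an unadjusted p are given here and below without the share of all genes, and are not read as results about the genes counted. The Neurod2 call as deposited was lost in 7 of the 12 fits with an embryo left out (limma adjusted p up to 0.121), and the Tle4 call was kept in all 12.

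**Figure D3:**
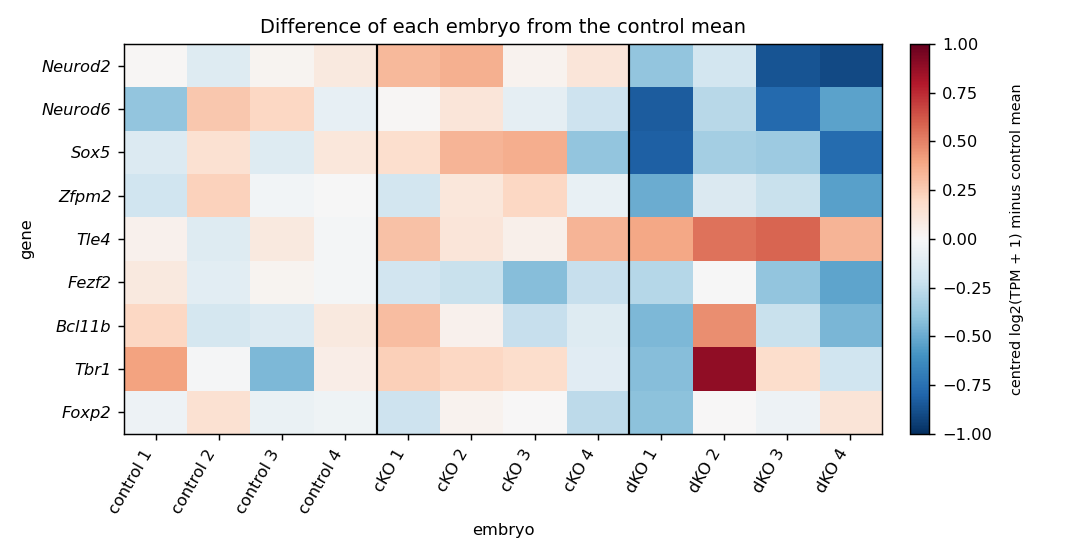
Difference of each embryo (columns, grouped by genotype) from the control mean for each gene (rows), in centred log2(TPM + 1), with red higher and blue lower. The dKO columns are blue for Neurod2, Neurod6, Sox5 and Zfpm2 and red for Tle4, and dKO embryo 2 is red for Tbr1 and Bcl11b.

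Embryos of 1 genotype also differed among themselves. dKO embryo 2 was the highest of the 4 dKO embryos for 7 of the 9 genes on both scales, the exceptions being Foxp2 and Tle4, and it was the lowest for none. dKO embryos 1 and 4 were the lowest for 4 and 5 of the 9. In cKO, as deposited, embryo 2 was the highest for 6 of the 9 and the lowest for none, and embryo 3 was the lowest for 5. By Dixon's criterion at 95%, 0 of the 27 sets of 4 values held an outlier. In dKO embryo 2 the summed level of 15 pan-neuron markers was 255 TPM, beside 173, 219 and 226 TPM in dKO embryos 1, 3 and 4. Its summed ventral interneuron list was 12.02 TPM, beside 5.56 to 7.22 TPM in the other dKO embryos. The part of these differences in the members' levels was not tested.

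Correlations of members over the 12 embryos on the centred scale are given as a description, since all values share the same libraries. Sox5 and Zfpm2 had a Pearson r of 0.88, Zfpm2 and Neurod6 of 0.80, Sox5 and Neurod6 of 0.77, Neurod2 and Neurod6 of 0.73, Sox5 and Neurod2 of 0.73, and Zfpm2 and Neurod2 of 0.63. Tbr1 and Bcl11b, the genes that were high in dKO embryo 2, had an r of 0.79 with each other. Bcl11b also had an r of 0.68 with Fezf2 and of 0.57 with Neurod2. Tle4 had its lowest values with Neurod6 (r of -0.69), Sox5 (-0.65), Zfpm2 (-0.64) and Neurod2 (-0.53). Its r was also negative with Fezf2 (-0.37) and Foxp2 (-0.37). Genotype differences enter all of these values.

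The genes whose centred pattern over the 12 embryos was most like each member were taken by the highest Pearson r among all tested genes. For Neurod2 they were Tmem44 (0.950), Lmo1 (0.944) and Podxl2 (0.936), and for Neurod6 Gria2 (0.935), Tmem74 (0.930) and Rps6ka5 (0.929). Gria2 encodes an AMPA receptor subunit. For Sox5 they were Slc22a15 (0.962), Tiam2 (0.951) and Cnksr2 (0.948), and for Zfpm2 the nuclear factor gene Nfib (0.949), with Gm45263 (0.941) and Ccser1 (0.935). Tle4 was most like Serpinh1 (0.945), a collagen chaperone of the endoplasmic reticulum, Alg3 (0.940) and Gm4285 (0.930). Fezf2 was most like Foxo6 (0.959), Jun (0.949) and Zdhhc8 (0.923). For Bcl11b they were Nuak1 (0.940) and Kif21b (0.934), for Tbr1 Gnao1 (0.928), Nav1 (0.912) and Midn (0.910), and for Foxp2 Cap2 (0.919), Gm9493 (0.909) and Zfp60 (0.905).

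The members were set beside the level of neuronal RNA in the same tissue. The 15 pan-neuron markers summed to 220 to 229 TPM over control, 316 to 382 in cKO and 173 to 255 in dKO. Of the 14 that were tested, 10 were called higher in cKO as deposited (34.3% of all genes) and 1, Gap43, after centring (3.72%). Their centred median was 0.33, beside 0.02 for the 9 layer genes. When each library was shifted to an equal mean of the pan-neuron markers, all 9 members had negative changes in cKO against control. This shift lowers every gene alike in that comparison, as from -2.14 to -2.70 for Rnu11. It is larger than the highest deposited rise of a member, 0.46 for Neurod2, so these signs follow from the scaling. Only 1, Fezf2, was called lower there (-0.57, limma adjusted p = 0.0308), where 9.22% of all genes were. On that scale the dKO changes from control were -0.57 for Neurod2, -0.59 for Neurod6, -0.55 for Sox5 and 0.48 for Tle4, and 0 of the 9 were called. Unadjusted limma p-values were under 0.05 for 5 of them, a count with no share of all genes beside it. In dKO against cKO Tle4 was called higher (0.59, limma adjusted p = 0.0261), where 19.2% of all genes were. In this bulk tissue fewer cells of a type and less RNA per cell cannot be told apart.

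**Figure D4:**
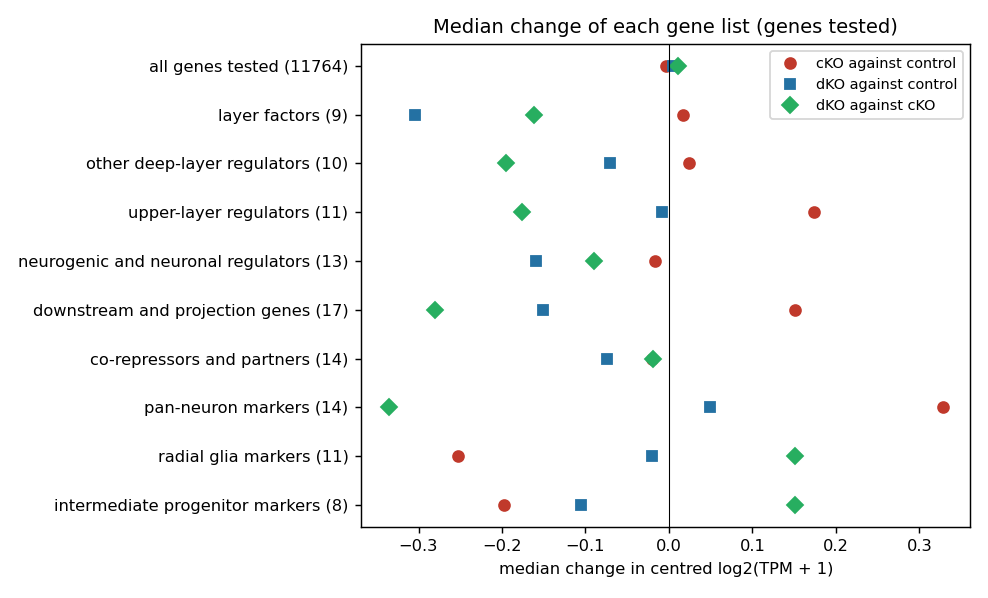
Median change in centred log2(TPM + 1) (horizontal axis) of the layer genes, of related gene lists and of all tested genes in the 3 comparisons, with the number of genes tested in brackets. The layer genes are the list farthest below 0 in dKO against control at -0.30, while pan-neuron markers are at 0.33 in cKO against control and -0.34 in dKO against cKO; for co-repressors and partners 2 of the symbols coincide at -0.02.

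Of 12 other listed regulators of deep-layer neurons 10 were tested, and in cKO against control 4 were called higher as deposited (34.3% of all genes) and 2 after centring (3.72%), with 0 lower. The 2 were Ldb2, a LIM-domain binding co-factor (2.77 ± 0.259 TPM over control, 6.50 ± 0.867 over cKO and 3.56 ± 0.225 over dKO, SD, n = 4), and Lmo3, a LIM-only protein (10.6 ± 0.495, 15.96 ± 1.93 and 11.4 ± 1.62 TPM). Ldb2 rose by 0.74 centred (limma adjusted p = 0.00125), and it fell by 0.45 in dKO against cKO (adjusted p = 0.0317). In dKO against control limma called 0 of the 10 on either scale, while 4 had an unadjusted p under 0.05 on each.

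Of the 15 listed upper-layer regulators 11 were tested, and in cKO against control 5 were called higher as deposited (34.3% of all genes) and 1 after centring (3.72%). That gene, Mef2c, rose in cKO, from 3.22 ± 0.458 to 6.85 ± 1.33 TPM (centred 0.64, limma adjusted p = 0.0407). Id2, an inhibitor of basic helix-loop-helix factors, fell by 0.52 centred in dKO against cKO (limma adjusted p = 0.0286), and Bhlhe22 fell by 0.42 (adjusted p = 0.00680). In dKO against control limma called 0 of the 11 on either scale, with 2 at an unadjusted p under 0.05 on each.

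Among 13 neurogenic and general neuronal regulators, all tested, Neurog2, which acts upstream of the Neurod genes in progenitors, fell in cKO from 15.5 ± 3.33 to 10.6 ± 0.992 TPM (centred -0.74, limma adjusted p = 0.00240). Nhlh2, a gene of newborn neurons, rose from 2.92 ± 0.0502 to 4.98 ± 0.333 TPM (centred 0.36, limma adjusted p = 0.0274). In dKO against control limma called 0 of the 13 on either scale, with 2 at an unadjusted p under 0.05 as deposited and 4 centred. Neurod1, a relative of Neurod2 in this list, averaged 7.09 TPM over control, 8.62 over cKO and 6.49 over dKO.

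Genes that act downstream or mark projection neurons numbered 20, of which 17 were tested. In cKO 8 were called higher as deposited (34.3% of all genes) and 3 after centring (3.72%), namely Reln (14.6 ± 3.37 to 35.1 ± 2.99 TPM), Crym (2.50 ± 0.573 to 5.29 ± 0.268 TPM) and Cntnap2 (9.85 ± 0.170 to 18.1 ± 1.38 TPM). Reln is a known target of Tbr1 and is also a product of Cajal-Retzius cells, whose marker list holds it and Nhlh2. In dKO against control 3 were called lower after centring (4.69% of all genes) and 0 higher. Among them was Auts2, a gene of cortical neurons bound by Tbr1, at 19.5 ± 2.04 TPM over control, 26.0 ± 1.66 over cKO and 12.8 ± 3.69 over dKO (centred -0.58, limma adjusted p = 0.0258). Of 19 listed co-repressors and partners 14 were tested, and limma called 0 in any comparison after centring, with 3, 0 and 2 at an unadjusted p under 0.05 in cKO against control, dKO against control and dKO against cKO. As deposited 5 were called higher in cKO against control and 5 lower in dKO against cKO, near the 34.3% and 38.8% of all genes. The other Groucho genes Tle1 and Tle3 stood at 15.6 and 4.37 TPM in control and at 15.0 and 3.85 TPM in dKO. In cKO against control Tle1 was called higher as deposited (0.38, limma adjusted p = 0.00950) but not centred (0.14, adjusted p = 0.200). Tle3 was called on neither scale there (0.12 and -0.13).

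Markers of other cells moved with genotype as well. Summed microglia markers (8 genes) were at 9.71 to 11.2 TPM over control, 35.0 to 49.7 in cKO and 11.0 to 15.0 in dKO. Vessel markers (6 genes) were at 8.55 to 11.6, 17.6 to 23.1 and 10.9 to 18.2 TPM, and meningeal and mesenchymal markers (6 genes) at 23.0 to 39.9, 41.6 to 49.9 and 36.3 to 53.0 TPM. All 3 sums were higher in every cKO embryo than in every control embryo, as were Tle4 and 32.7% of all genes. The pan-neuron, radial glia and Cajal-Retzius sums shared this order. In dKO each of the 3 sums overlapped control, but its median was higher than in control. For microglia markers the medians were 13.6 TPM in dKO and 10.02 in control. For vessel markers they were 15.0 and 10.3 TPM, and for meningeal and mesenchymal markers 45.3 and 25.2 TPM. Centred, Col3a1 (0.82, limma adjusted p = 0.0271), Lum (0.53, adjusted p = 0.0295) and Kdr (0.46, adjusted p = 0.0461) were called higher there. The other tested genes of these 3 lists were not, and 3.74% of all genes were. Tle4 was above control in every dKO embryo. The part of these sums in the Tle4 levels was not tested. Cajal-Retzius markers (9 genes) were at 20.6 to 26.8, 45.6 to 52.2 and 23.9 to 35.1 TPM. Of 14 ventral interneuron markers 10 were under 1 TPM in all 12 embryos, among them Nkx2-1, Gsx2, Gad1 and Gad2, and the list summed to 5.38 to 9.22, 7.29 to 9.75 and 5.56 to 12.02 TPM. Of 12 striatal markers 9 were under 1 TPM in all 12, among them Isl1, Drd1 and Drd2. The list summed to 37.6 to 45.8, 39.0 to 49.4 and 27.9 to 34.6 TPM, so that every dKO embryo was below every other embryo. Most of this sum was Meis2 (39.04 ± 3.48 TPM over control, 27.7 ± 3.56 over dKO), which fell in dKO against control by 0.48 as deposited (limma adjusted p = 0.0329) and by 0.46 centred (adjusted p = 0.00839). Rarb, the other striatal marker tested, had changes above 0 there and was not called (0.27 as deposited, limma adjusted p = 0.248, and 0.29 centred, adjusted p = 0.216). Radial glia markers (12 genes) summed to 268 to 300.0 TPM over control, 316 to 372 in cKO and 288 to 296 in dKO. After centring 2 of the 11 tested were called lower in cKO against control (2.96% of all genes) and 0 higher. Hes5 was lower by 0.71 (limma adjusted p = 0.0113) and Sox2 by 0.44 (adjusted p = 0.0182). As deposited Hes5 was called lower too (limma adjusted p = 0.0494). In that fit Fabp7 (0.46, limma adjusted p = 0.00955), Slc1a3 (0.55, adjusted p = 0.00505) and Ptprz1 (0.43, adjusted p = 0.0245) were called higher, where 34.3% of all genes were. Intermediate progenitor markers (8 genes) summed to 54.2 to 73.9, 55.8 to 77.6 and 55.2 to 65.0 TPM. Of these, Eomes and Sstr2 were called lower in dKO against control, where 3.40% of all genes were as deposited and 4.69% centred. For both, every dKO embryo was below every control embryo, as for 8.44% of genes as deposited. The rest of the list was not called. Centred, Mfap4 (0.28), Mfng (0.18), Btg2 (0.10) and Gadd45g (0.05) had changes above 0, and Neurog2 (-0.38) and Insm1 (-0.26) below 0. Eomes fell by 0.57 as deposited (limma adjusted p = 0.0181) and by 0.55 centred (adjusted p = 0.00300). Sstr2 fell by 0.62 (limma adjusted p = 0.0139) and by 0.60 centred (adjusted p = 0.00424). These single marker genes were chosen after their values were seen. The part of these differences in the members' levels was not tested.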

How the data were processed

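Total RNA was sequenced from 12 dissected pallia, 4 per genotype. The deposited tables hold 1 value per gene symbol and library; the values sum to 1000000 in each, so the authors' unit was taken as TPM from the values. HISAT2 and mm10 are named in the submitters' processing notes; the quantification tool, the annotation and the treatment of strand and shared reads are not given in the sources used here. TPM keeps no depth, and a change in abundant structural RNA moves all other genes. The genes and lists were chosen with earlier results of these data known. Groups came from the genotype labels. A linear model was fitted to log2(TPM + 1) in limma 3.58.1, under R 4.3.3, with lmFit and eBayes (trend), all 12 libraries in 1 fit, the genes being those with a library mean at or above 1 TPM, with Benjamini-Hochberg adjustment over 11764 genes. On simulated data for cKO against control over these genes, the procedure recovered 185 of 200 genes changed by 1 on the log2 scale, with 17 false calls; recovery of smaller changes, as most of the members' were, was not simulated. No 2 libraries were identical (highest r between libraries 0.971). Nothing says that the embryos came from separate litters, so p-values measure the spread between these embryos. Alternatives were a pseudocount of 0.1, no filter, a mean of at least 5 TPM, 4 scalings, the replicate number as a block, fits of 2 groups and leaving out each embryo. Named genes were the 9 members, up to 4 genes of each related list called on both scales with the largest change, and the 3 genes most correlated with each member. An item that this rule names is not reported here. Some genes were named outside this rule. Neurod1, Tle1 and Tle3 were chosen as close relatives of members. Single genes of the marker lists, such as Eomes, Sstr2, Meis2, Hes5, Sox2 and Gap43, were chosen after their values were seen.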

Additional observations from a re-analysis of the deposited data

How the results depend on the processing

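The number of members called depends on the scaling, and so does that of all genes. In cKO against control 34.3% of all genes were called higher as deposited and 3.72% after median-shift centring. For most of the other fits below the share of all genes is not given. Their counts therefore do not separate the members from all genes. In cKO against control 2 were called (Neurod2 and Tle4, higher), 1 of them (Tle4) after protein-coding rescaling or without a filter on low values, and 0 after median-shift centring or quantile normalization. After pan-neuron centring neither was called, and the 1 call there was Fezf2, lower. In dKO against cKO 4 were called lower, and 2 of these after median-shift centring. After pan-neuron centring none of the 4 was called, and the 1 call there was Tle4, higher. In dKO against control the 3 calls became 0 without a filter or after pan-neuron centring and 1 in a fit of 2 groups only. Leaving out each embryo in turn, on the deposited and the centred values, gave 0 to 2, 1 to 7 and 0 to 4 calls in cKO against control, dKO against cKO and dKO against control. Same-numbered embryos did not deviate together (r from -0.0954 to 0.0745), and with the replicate number as a block the calls were 1, 4 and 2 as deposited and 0, 2 and 3 after centring.

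Several small changes switched sign between scalings. In cKO against control Bcl11b became -0.0014 with median-shift centring, with or without the replicate block, -0.013 with quantile normalization and -0.31 with pan-neuron centring. Foxp2 became -0.11, -0.14 and -0.41, Neurod6 -0.040 and -0.35 (median-shift and pan-neuron), and Zfpm2 -0.0077 with quantile normalization. With pan-neuron centring Neurod2 was at -0.10, Sox5 at -0.19, Tbr1 at -0.18, Tle4 at -0.11 and Zfpm2 at -0.29. In dKO against cKO Foxp2 became 0.025, 0.036 and 0.35 and Tle4 0.27, 0.19 (protein-coding), 0.28 and 0.59. Tbr1 became 0.0028 with quantile normalization, and with pan-neuron centring Tbr1 was at 0.31, Bcl11b at 0.16 and Fezf2 at 0.29. The ranges below pool the deposited and the centred fits with an embryo left out, so a switch of sign can come from the scaling alone. This was so for Foxp2 in cKO against control (0.084 to 0.21 as deposited, -0.15 to -0.055 centred). In cKO against control the pooled ranges were -0.10 to 0.35 for Bcl11b, -0.30 to 0.063 for Fezf2, -0.15 to 0.21 for Foxp2, -0.17 to 0.28 for Neurod6, -0.025 to 0.53 for Tbr1 and -0.051 to 0.36 for Zfpm2. In dKO against cKO they were -0.42 to 0.039 for Fezf2, -0.31 to 0.13 for Foxp2, -0.56 to 0.16 for Tbr1 and -0.083 to 0.31 for Tle4. In dKO against control they were -0.16 to 0.025 for Foxp2 and -0.18 to 0.29 for Tbr1. The cause was not tested. TPM keeps no depth, so the precision of the genes near 1 TPM, Zfpm2 above all, is unknown.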
